A study of Mus musculus with 34 samples.

Results

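Oxidative phosphorylation subunits are the proteins of the respiratory chain and the ATP synthase. Their genes were followed in mouse liver RNA as every gene whose symbol matched a fixed pattern (Nduf a, b, c, s or v subunits, Sdha to Sdhd, Uqcr genes, Cyc1, Cox4 to Cox8 and Atp5 genes), together with the mitochondrially encoded protein genes. The pattern and the mitochondrial names gave 97 genes present in both count tables, of 13377 genes that the tables share: 84 nuclear genes and 13 mitochondrial genes. Of the 84 nuclear genes, 80 were counted as subunit genes and 4 (Cox5b-ps, Ndufa12-ps, Ndufs6b and Ndufb4c) as copies or pseudogenes of them. The 80 include Cox7a2l, a factor of supercomplex assembly, and Ndufb1, which GENCODE M21 annotates as a noncoding gene (Ndufb1-ps). By complex, 39 nuclear genes belonged to complex I, 4 to complex II, 9 to complex III, 15 to complex IV and 17 to complex V.

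The complexes work in series in the inner mitochondrial membrane. Complexes I and II take electrons from NADH and succinate, complex III passes them to cytochrome c, complex IV hands them to oxygen, and complex V (ATP synthase) uses the proton gradient that complexes I, III and IV build to make ATP. Their subunits come from both genomes: nuclear genes are transcribed singly and their proteins imported, whereas the mitochondrial genes are cut out of long transcripts of the mitochondrial DNA and most of their mRNAs receive short poly(A) tails inside the organelle (in human cells ND6 is an exception). All subunits of complex II are nuclear. Hepatocytes are rich in mitochondria, and in fatty liver the respiratory chain takes up electrons from fatty acid oxidation.

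The livers came from male C57BL/6J mice in 2 experiments, 1 library per mouse, 34 libraries in all. In the Bcl2 experiment, a Cre-inducible Bcl2 transgene was switched on in adipocytes by Adipoq-Cre (Bcl2TG), and these mice and WT mice ate chow (10% of calories as fat) or HFD (60%): Chow WT (n = 3), Chow Bcl2TG (n = 3), HFD WT (n = 5) and HFD Bcl2TG (n = 5). In the S100a8 experiment, floxed S100a8 was deleted with Cx3cr1-Cre, a driver active in monocytes and macrophages, and floxed littermates without Cre were the controls: Chow S100a8f/f (n = 4), Chow S100a8f/fCx3cr1Cre (n = 5), HFD S100a8f/f (n = 5) and HFD S100a8f/fCx3cr1Cre (n = 4). Diets began at 8 weeks of age and lasted 3 months for the Bcl2 mice and 3 or 4 months for the S100a8 mice, for which the study's text and legends differ. The transgene acts in fat, so the Bcl2 level in liver is no direct check of the genotype. It was nevertheless 21.3 CPM (counts scaled to a common library size by TMM) in the library labelled mouse 1 of HFD WT, above all HFD Bcl2TG mice (8.98 to 14.9 CPM) and the other HFD WT mice (2.72 to 2.94 CPM). Chow WT (7.75 to 11.3 CPM) and Chow Bcl2TG mice (4.17 to 8.44 CPM) overlapped. Whether its label holds was not tested. It was kept in its labelled group, and without it 0 members were called between genotypes on HFD or between diets in WT, with mitochondrial medians of 0.60 and -0.62 and nuclear medians of 0.30 and -0.45 (log2 fold change) against 0.56, -0.56, 0.35 and -0.48 with it. S100a8 itself was not among the genes counted in the S100a8 experiment, so its deletion could not be checked there. Neither driver targets hepatocytes. The p-values measure the spread between these mice.

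Libraries held 19639839 to 52395073 counts in the Bcl2 experiment and 18628257 to 25462106 in the S100a8 experiment. All 7 hepatocyte markers examined were present, with summed levels of 68847 to 124994 CPM and 70619 to 104053 CPM in the respective experiments. In bulk liver, fewer cells of a type and less RNA per cell cannot be told apart. Of the 16 Bcl2 libraries, 3 stood apart in the genes studied here: mouse 2 of Chow WT, mouse 2 of HFD WT and mouse 6 of HFD Bcl2TG. Mouse 2 of Chow WT had 80 of 84 nuclear members above both other mice of its group (median log2 offset 1.18), mouse 6 of HFD Bcl2TG had 75 of 84 nuclear (median 0.90) and 11 of 13 mitochondrial members above all its mates, and mouse 2 of HFD WT had 9 of 13 mitochondrial members below all its mates (median -1.82). Mouse 3 of HFD WT lay apart by less, with 47 of 84 nuclear members below all its mates (median -0.27). It was omitted only where each library was left out in turn. Most medians over the members are given with and without 1 or more of the first 3 libraries, and single genes mostly with all libraries.

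Before any level, the sequence of the mitochondrial genes limits what their counts can mean, because the nuclear genome carries a stretch of mitochondrial DNA. On chromosome 1 of GRCm38, on the minus strand between 24611535 and 24616197, GENCODE M21 annotates 7 genes that are copies of ND4 (Gm28439), COX3 (Gm28437), COX2 (Gm28661), ATP6 (Gm10925), ND4L (Gm10222), ND3 (Gm28438) and COX1 (Gm29216). The copies of COX2, ATP6, COX3, ND4L and the matching part of ND4 differed from the mitochondrial gene at 0 positions over 681, 678, 783, 294 and 876 bases. The first 120 bases of ATP6 and of its copy show what identity means for a short read, and ND3 and COX1 show the only copies with differences. Capitals mark bases that differ within a pair. Positions count from 1 at the start of the gene, and the sequences are those of GENCODE M21 transcripts.
ATP6, bases 1 to 120: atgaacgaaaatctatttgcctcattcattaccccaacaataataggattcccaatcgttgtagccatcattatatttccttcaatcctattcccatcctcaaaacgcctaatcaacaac
Gm10925: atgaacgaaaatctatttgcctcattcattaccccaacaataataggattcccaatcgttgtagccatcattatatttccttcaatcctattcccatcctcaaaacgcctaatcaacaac
ND3, bases 1 to 120: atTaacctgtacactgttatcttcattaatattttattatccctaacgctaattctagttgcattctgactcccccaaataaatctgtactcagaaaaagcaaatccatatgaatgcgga
Gm28438: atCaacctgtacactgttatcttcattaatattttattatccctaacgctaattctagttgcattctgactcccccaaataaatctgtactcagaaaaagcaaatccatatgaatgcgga
COX1, bases 1054 to 1173: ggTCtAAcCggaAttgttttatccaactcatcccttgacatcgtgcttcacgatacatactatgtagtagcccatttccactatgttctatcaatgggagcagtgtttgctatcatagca
Gm29216: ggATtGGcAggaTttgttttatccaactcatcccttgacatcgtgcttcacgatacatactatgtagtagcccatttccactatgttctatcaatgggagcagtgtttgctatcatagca
The ND3 copy carried 1 substitution in 345 bases (T3C), and the COX1 copy 6 in 492 bases (T1056A, C1057T, A1059G, A1060G, C1062A and A1066T). A read from anywhere else in these stretches fits both places equally well.

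The counts showed the same division. The copies of COX2, ATP6, COX3, ND3 and ND4L held a median of 59.6%, 65.8%, 61.7%, 57.4% and 55.0% of the counts of gene plus copy in the Bcl2 experiment, and 54.0%, 63.0%, 56.8%, 50.9% and 55.0% in the S100a8 experiment. For ND4 and COX1, which are only partly copied, the medians were 4.98% and 2.51%, and 2.50% and 1.96%. The division moved between libraries: in mouse 3 of HFD WT the copies held 40.5% (COX2), 46.9% (ATP6), 33.4% (COX3), 26.5% (ND3) and 27.0% (ND4L), the lowest of the 16 libraries. In HFD WT mice 1 to 5, ATP6 was at 298, 99.9, 92.6, 259 and 278 CPM while Gm10925 was at 526, 153, 81.8, 531 and 492 CPM, so mouse 3 had the lowest levels of both members of the pair. The levels of COX2, COX3, ATP6, ND3 and ND4L below are therefore uncertain by the part that fell on the copy. Over all nuclear transcripts of GENCODE M21, which hold further copies outside chromosome 1, CYTB, ND1, ND6 and ATP8 had 0% of their 50-base windows in common with a nuclear transcript, ND5 7.61% and ND2 8.19%, whereas COX1 had 51.1% and ND4 62.2%. ATP8 and ATP6 overlap by 43 bases, ND4L and ND4 by 7 and ATP6 and COX3 by 1 on the same strand. ND5 and ND6 overlap by 14 bases on opposite strands. Whether counting used strand is not given in the sources used here.

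**Figure D1:**
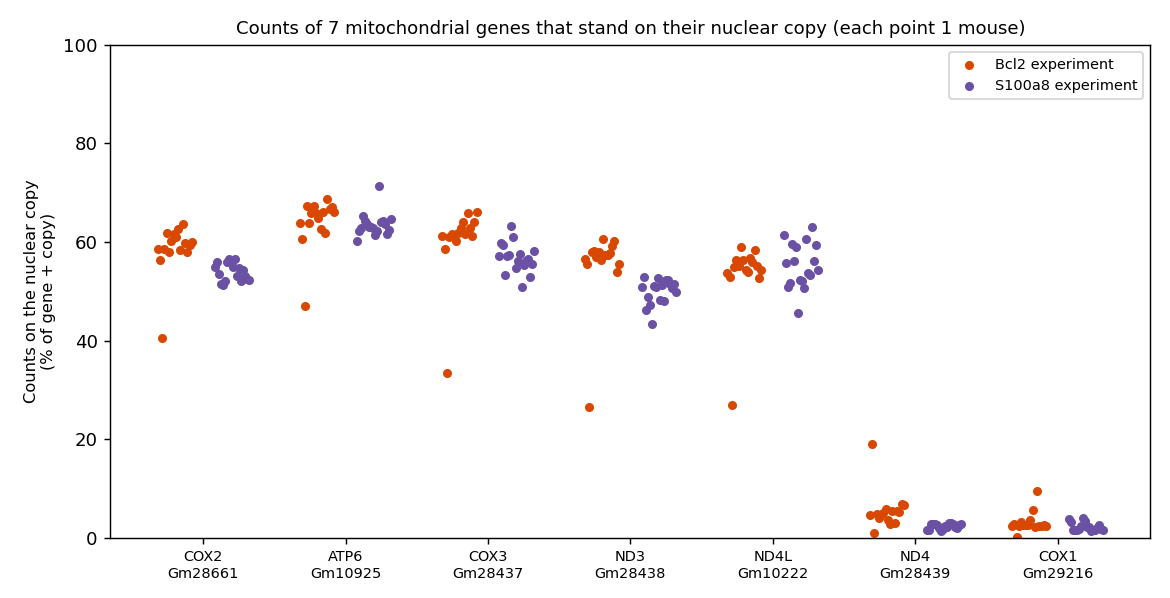
For each of the 7 mitochondrial genes with a copy on chromosome 1, the percent of the counts of gene plus copy that were assigned to the copy (vertical axis) is plotted for each library by experiment. The 5 fully copied genes lie mostly between 50% and 70%, except in mouse 3 of HFD WT (26.5% to 46.9%), and ND4 and COX1 lie below 20%.

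On the nuclear side, the coordinated control of respiratory genes is most often tied to NRF1, ETS factors (GABP among them) and YY1, and promoters were searched for their motifs. In the RefSeq promoters of GRCm38.p6 (250 bases before to 50 after the start), 65 of the 84 nuclear members were matched, with 70 promoters. On either strand, the NRF1 motif (GCGCA, any base, then GCGC) was found in 18 of the 70 (25.7%) against 4.6% of all 32851 promoters, the ETS motif (CCGGAAG) in 16 (22.9%) against 8.86%, and the YY1 motif (AAGATGG followed by CGGC) in 4 (5.71%) against 0.633%. None of the 3 motifs was found in 37 of the 70. A match is a description of the letters, not a bound site. In the promoters shown, no match of one motif overlaps a match of another. Uqcrc1, a core subunit of complex III, shows 2 NRF1 matches in its promoter. So does Cox6a1, the nuclear member with the highest level per length in Chow WT. The promoter of Ndufs7, an iron-sulfur subunit of complex I, shows a YY1 match at the start of the coding sequence. Ndufs7 was lower on HFD in S100a8f/f livers (below). The promoters of Cox7a2l, Ndufb1, Ndufb10, Ndufb11, Ndufb5 and Ndufv3, called lower in the same comparison, held none of the 3 motifs. Capitals mark the matches (in Cox6a1 the last block is the ETS match on the other strand).
Uqcrc1, chr9:108936398-108936697, plus strand: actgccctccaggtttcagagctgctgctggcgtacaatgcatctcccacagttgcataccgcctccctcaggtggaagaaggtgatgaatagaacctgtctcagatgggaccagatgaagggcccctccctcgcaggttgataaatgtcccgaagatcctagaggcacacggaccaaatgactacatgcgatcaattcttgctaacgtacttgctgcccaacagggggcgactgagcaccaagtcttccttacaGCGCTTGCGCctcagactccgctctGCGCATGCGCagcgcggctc
Cox6a1, chr5:115348909-115349208, minus strand: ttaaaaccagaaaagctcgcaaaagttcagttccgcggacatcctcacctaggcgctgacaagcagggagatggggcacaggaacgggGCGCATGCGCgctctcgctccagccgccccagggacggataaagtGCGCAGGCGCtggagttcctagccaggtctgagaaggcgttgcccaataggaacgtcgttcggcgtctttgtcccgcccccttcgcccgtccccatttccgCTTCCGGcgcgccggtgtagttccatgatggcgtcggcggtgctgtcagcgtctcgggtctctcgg
Ndufs7, chr10:80249199-80249498, plus strand: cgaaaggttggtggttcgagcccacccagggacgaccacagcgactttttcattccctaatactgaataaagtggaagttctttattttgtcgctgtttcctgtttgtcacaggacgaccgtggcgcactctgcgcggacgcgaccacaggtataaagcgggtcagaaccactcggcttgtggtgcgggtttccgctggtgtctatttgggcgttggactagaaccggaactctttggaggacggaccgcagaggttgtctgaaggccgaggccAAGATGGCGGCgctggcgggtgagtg

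Levels per length put 8 of the 13 mitochondrial genes above every nuclear member in Chow WT. In Chow WT livers, COX1 stood highest, at 12035 ± 4791 CPM per kb of exon (SD, n = 3), followed by CYTB at 8467 ± 1613, ND1 at 6634 ± 404 and ND2 at 5793 ± 702 CPM per kb. ND6 and ND4 were next, at 3164 ± 1385 and 3102 ± 764 CPM per kb, and did not differ beyond their spread. The highest nuclear member was Cox6a1, a complex IV subunit, at 604 ± 357 CPM per kb, a level that did not stand apart from COX2 (685 ± 300 CPM per kb) or ATP6 (502 ± 98.1 CPM per kb). The other low mitochondrial genes lay among the nuclear ones, with COX3 at 407 ± 92.7, ND3 at 174 ± 94.6, ND4L at 112 ± 65.1 and ATP8 at 40.0 ± 13.4 CPM per kb. The catalytic ATP synthase subunits Atp5f1a and Atp5f1b were at 357 ± 29.4 and 284 ± 10.1 CPM per kb. The nuclear median per complex ran from 71.6 CPM per kb (complex I) through 89.9 (V), 128 (II) and 141 (IV) to 157 (III) in Chow WT, and from 79.4 (I) through 89.1 (V), 107 (II) and 130 (III) to 136 (IV) in Chow S100a8f/f.

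As shares of a library, the mitochondrial genome gave more RNA than the nuclear subunit genes in every library. In HFD WT mice 1 to 5 the 13 mitochondrial genes took 5.21%, 1.49%, 5.42%, 5.26% and 4.66% of all counts, and in HFD Bcl2TG mice 1, 2, 3, 5 and 6 5.19%, 5.52%, 5.09%, 4.51% and 6.73%. In Chow WT they took 5.76%, 3.41% and 5.67%, and in Chow Bcl2TG 5.67%, 5.75% and 6.18%. Mouse 2 was the lowest of both WT groups, mouse 6 the highest of HFD Bcl2TG, and with these 3 set aside the chow libraries lay at 5.67% to 6.18% and the HFD libraries at 4.51% to 5.52%, without overlap between the diets. With them included the diets overlapped, and the genotypes on HFD overlapped either way. The 3 libraries were singled out by their levels of these same genes, so the gap without them is no test of diet. The S100a8 experiment had lower and tighter shares, at 3.27%, 3.11%, 4.23% and 4.36% in Chow S100a8f/f, 3.78%, 3.41%, 4.31%, 3.14% and 3.69% in Chow S100a8f/fCx3cr1Cre, 4.05%, 4.29%, 4.28%, 3.83% and 4.05% in HFD S100a8f/f and 3.78%, 4.18%, 3.77% and 4.01% in HFD S100a8f/fCx3cr1Cre. The HFD ranges fell inside the chow ranges. Wilson 95% intervals, which cover counting error only, reached at most 0.011 percentage points on either side.

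The 84 nuclear members took 1.19%, 1.96% and 1.12% of counts in Chow WT, 1.17%, 1.21% and 1.20% in Chow Bcl2TG, 1.23%, 1.47%, 1.12%, 1.21% and 1.46% in HFD WT and 1.20%, 1.21%, 1.29%, 1.44% and 1.71% in HFD Bcl2TG. The highest was again mouse 2 of Chow WT, the next mouse 6 of HFD Bcl2TG. In the S100a8 experiment the nuclear shares were 1.89%, 1.69%, 1.39% and 1.37% in Chow S100a8f/f, 1.36% to 1.94% in Chow S100a8f/fCx3cr1Cre, 1.47% to 1.71% in HFD S100a8f/f and 1.45% to 1.81% in HFD S100a8f/fCx3cr1Cre. Among Chow S100a8f/f mice, those with the higher nuclear share (mice 1 and 2) had the lower mitochondrial share. The ratio of mitochondrial to nuclear counts was 1.74 in mouse 2 of Chow WT and 1.01 in mouse 2 of HFD WT, against 3.14 to 5.13 in the other 14 libraries of that experiment, and lay between 1.62 and 3.18 over the S100a8 libraries.

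**Figure D2:**
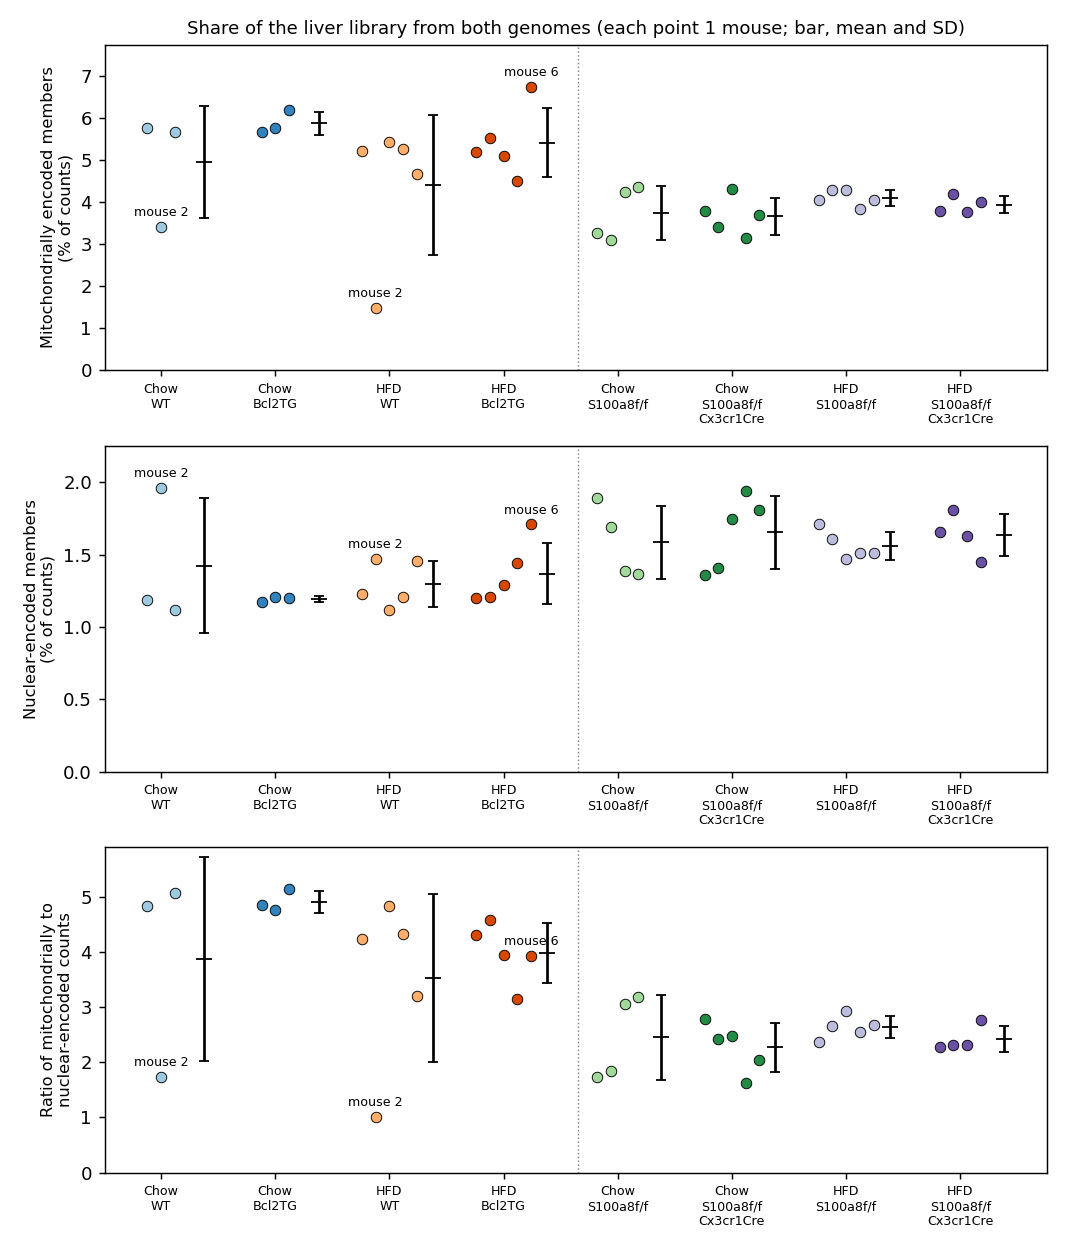
The 3 panels plot, for each library by group, the percent of counts in the 13 mitochondrial genes, the percent in the 84 nuclear members and the ratio of these shares; each point is a mouse. Mouse 2 of both WT groups has the lowest mitochondrial shares (3.41% and 1.49%) and ratios (1.74 and 1.01) of its experiment, and the S100a8 groups overlap in all panels.

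Over libraries, nuclear subunit genes varied with cytosolic ribosomal protein genes and with short genes in general. In mouse 2 of Chow WT, 79 of 79 cytosolic ribosomal protein genes were also above both mates (median log2 offset 1.37), and these genes took 2.81% of its counts against 1.21% and 1.25% in its mates. In the S100a8 experiment ribosomal proteins took 2.32%, 2.18%, 1.60% and 1.54% of counts in Chow S100a8f/f, in the same order of mice as the higher and lower nuclear shares, and 1.23% to 1.5% in HFD S100a8f/f. The median log2 CPM of other protein-coding genes with exons under 1000 bases (212 genes in the Bcl2 table) was 4.71 in mouse 2 of Chow WT and 4.42 in mouse 6 of HFD Bcl2TG, against 3.38 to 3.96 in the other Bcl2 libraries. Over libraries, the level of 77 of 80 nuclear subunit genes correlated positively with that median in the Bcl2 experiment (median Spearman rho 0.78, 16 libraries) and 75 of 80 in the S100a8 experiment (0.88, 18 libraries). These correlations are descriptions, and the points share libraries. RNA integrity values were not among the files used here, and the part of RNA quality in these levels was not tested.

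**Figure D3:**
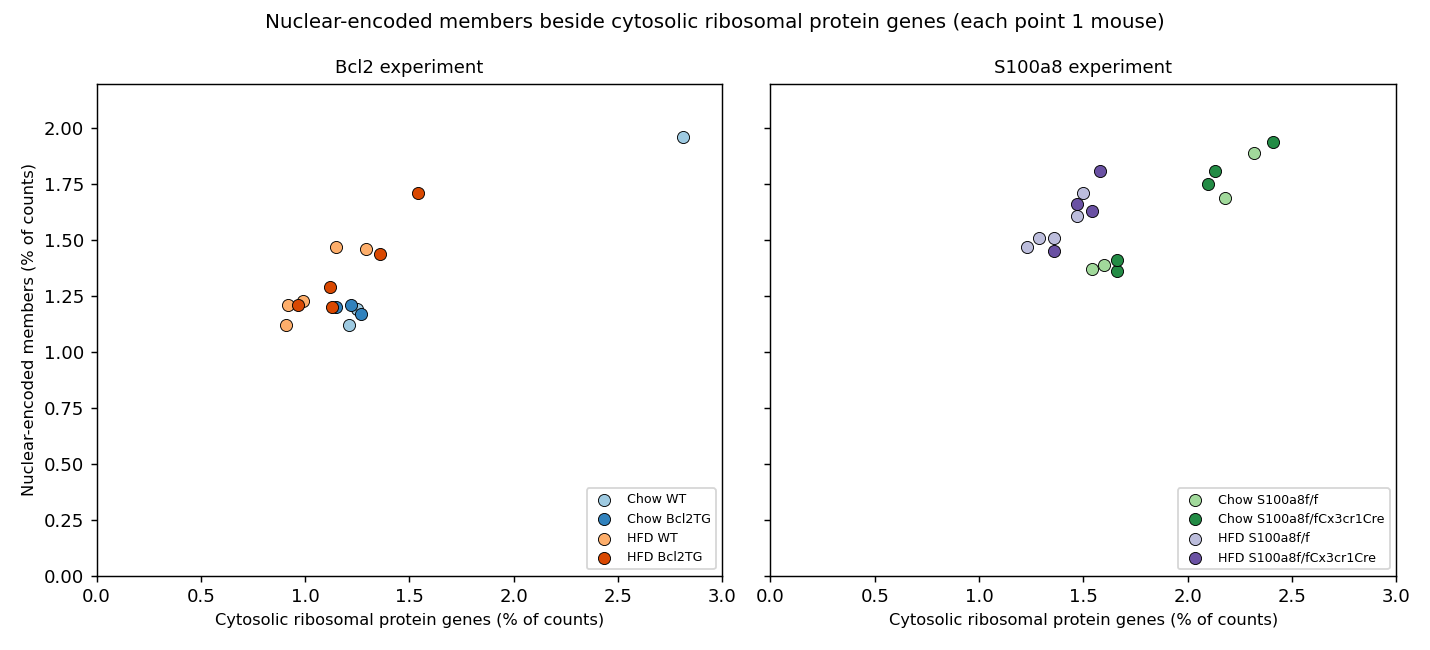
Each point is a library, with the percent of counts in the 79 (Bcl2 experiment) or 78 (S100a8 experiment) cytosolic ribosomal protein genes on the horizontal axis and the percent in the 84 nuclear members on the vertical axis, coloured by group. Both shares are highest in mouse 2 of Chow WT (2.81% and 1.96%) in the Bcl2 experiment, and in both experiments libraries high in the one tend to be high in the other.

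Subunit genes with a shorter sum of annotated exons varied more between livers than those with a longer sum. Over 80 nuclear subunit genes, exon length and the SD of log2 CPM over libraries had a Spearman rho of -0.41 in the Bcl2 and -0.42 in the S100a8 experiment (across genes, which are not independent replicates). The median SD was 0.44 for 18 genes under 1000 bases, 0.48 for 32 genes of 1000 to under 2000 bases and 0.30 for 30 longer genes in the Bcl2 experiment, and 0.32, 0.32 and 0.22 in the S100a8 experiment. Atp5f1b, the catalytic beta subunit of ATP synthase, was among the steadiest, with an SD of 0.12 and 0.06 and levels of 1204 ± 43.0 CPM in Chow WT (n = 3), 1188 ± 89.8 CPM in HFD WT and 1125 ± 136 CPM in HFD Bcl2TG (SD, n = 5 each). Cox6c, a small subunit of complex IV, varied more (SD 0.40 and 0.32), although its annotated exons sum to 3567 bases.

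The first question was whether subunit RNA differed between HFD-fed Bcl2TG and WT livers. No member was called by edgeR's quasi-likelihood test at an adjusted p under 0.05, against 6.71% of all genes, and neither DESeq2 nor limma-voom called any. At an unadjusted p under 0.05, 11 of 97 members passed, against 21.7% of all genes. In both genomes most values were positive: all 13 mitochondrial genes had positive log2 fold changes (median 0.56), as did 78 of 84 nuclear members (median 0.35), against a median of 0.01 over all genes. Without mouse 6 of HFD Bcl2TG the medians were 0.26 and 0.09, and without mouse 2 of HFD WT the mitochondrial median was 0.35. With the median level of short genes as a covariate, an adjustment added once the data had been seen, the nuclear median was -0.01 with 39 of 84 positive, and the mitochondrial median 0.48 with 13 of 13 positive. The covariate rose and fell with the nuclear subunit genes over libraries (median Spearman rho 0.78), so this fit cannot separate genotype from it. Ribosomal proteins had a median of 0.38 in the unadjusted comparison.

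The mitochondrial genes with the smallest adjusted p on HFD were COX3, ATP6 and ND3, whose counts are shared with the nuclear copies. COX3, a core subunit of complex IV, was at 207 ± 87.9 CPM in HFD WT and 357 ± 134 CPM in HFD Bcl2TG (SD; n = 5 in either group), with a log2 fold change of 0.78 ± 0.28 (SE; adjusted p = 0.108, edgeR). ATP6, the proton channel subunit of ATP synthase, had a value of 0.88 ± 0.33 (adjusted p = 0.123, edgeR). ND3, of complex I, had 0.99 ± 0.38 (adjusted p = 0.135, edgeR). Mouse 6 of HFD Bcl2TG was far above its mates in COX3 (594 CPM), ATP6 (672 CPM) and ND3 (116 CPM). ATP6 ran from 92.6 to 298 CPM in HFD WT, where mice 2 and 3 were low, and from 288 to 672 CPM in HFD Bcl2TG. The groups also overlapped for COX3 and ND3. Values of these genes without those libraries are not given here. For genes with no copy the values were smaller. CYTB, the mitochondrial subunit of complex III, was at 8650 ± 3573 and 11959 ± 3502 CPM (log2 fold change 0.47 ± 0.30, adjusted p = 0.39, edgeR), with overlapping groups. Neither Sdha, the flavoprotein subunit of succinate dehydrogenase (log2 fold change -0.19), nor Atp5f1c, the gamma subunit of ATP synthase (0.27), passed the test. Their groups did not overlap between the genotypes, but how many of all genes have such groups was not counted. Sdha was at 625 ± 23.2 CPM in HFD WT and 547 ± 69.8 CPM in HFD Bcl2TG (adjusted p = 0.297, edgeR).

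On chow, the genotypes again gave 0 called members (edgeR, against 0.152% of all genes; 0 by DESeq2 and limma-voom; 3 of 97 at an unadjusted p under 0.05, against 7.4%). Of 84 nuclear members, 81 had negative values (median -0.43 against -0.03 over all genes), and the mitochondrial median was 0.24. Without mouse 2 of Chow WT the nuclear median was 0.07. Ribosomal proteins had a median of -0.61 with that mouse included. For the steady subunit Atp5f1a, the alpha subunit of ATP synthase, the Chow WT and Chow Bcl2TG levels were 1119 ± 92.2 and 1053 ± 14.3 CPM (SD, n = 3 each; log2 fold change -0.09, adjusted p = 0.859, edgeR).

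The diet comparison in WT livers called 0 members by edgeR, against 15.4% of all genes. At an unadjusted p under 0.05, 20 of 97 members passed, against 30.5%. DESeq2 called 4 (Ndufa4, Atp5po, Uqcrh and Ndufs6b) and limma-voom 1 (Cox7a1). Of all 14436 genes they called 2882 and 3132. All 13 mitochondrial genes (median -0.56) and 79 of 84 nuclear members (median -0.48) had negative log2 fold changes, against a median of -0.02 over all genes. The nuclear values followed mouse 2 of Chow WT: without it the nuclear median was 0.02, while the mitochondrial median was -0.51. The mitochondrial values followed mouse 2 of HFD WT in part, with a median of -0.30 without it. Without both mice the medians were -0.32 for the mitochondrial genes and -0.02 for the nuclear members. By complex the nuclear medians were -0.54 (I), -0.22 (II), -0.48 (III), -0.44 (IV) and -0.54 (V). With the replicate number as a block 2 members were called, against 1996 of 14436 genes. They were ND3 (-1.34 ± 0.41, adjusted p = 0.0494, edgeR) and Atp5po, a stalk subunit of ATP synthase (-0.97 ± 0.27, adjusted p = 0.0353, edgeR). The numbers passed the check described under the processing. Differently numbered mice of these groups reached a higher r (0.484, mouse 5 on HFD and mouse 2 on chow), so the check cannot show pairing.

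ND6 and ND1 give the WT diet values per mouse. ND6, the complex I subunit encoded on the other strand, was at 1257, 2471 and 1198 CPM in Chow WT and at 1062, 471, 761, 1146 and 1176 CPM in HFD WT. All HFD mice lay below all chow mice, but mouse 1 and mouse 3 on chow were close to the upper HFD values (log2 fold change -0.83 ± 0.32, adjusted p = 0.0927, edgeR). ND1 was at 6193, 6788 and 6064 CPM on chow and at 4922, 1415, 4772, 4934 and 5450 CPM on HFD, again without overlap (-0.56 ± 0.32, adjusted p = 0.253, edgeR), and mouse 2 of HFD WT was far below its mates. Ndufa4, a small nuclear subunit of complex IV, had -0.77 ± 0.28 (adjusted p = 0.0742, edgeR), with 396 ± 246 CPM in Chow WT and 233 ± 27.7 CPM in HFD WT. Cox4i1, Cox5a and Cox6c of complex IV and Uqcrfs1, the iron-sulfur protein of complex III, had values of -0.53, -0.40, -0.44 and -0.36. By contrast, Ndufs1, Sdha, Atp5f1a and Atp5f1b had 0.10, 0.12, 0.04 and -0.02. None of these passed the test.

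In Bcl2TG livers the diet gave 0 called members by edgeR (against 2.58% of all genes, with 1 of 97 at an unadjusted p under 0.05 against 15.5%), 0 by DESeq2 and 2 by limma-voom (ATP8 and ND4L). Of all 14436 genes DESeq2 called 784 and limma-voom 1968. The nuclear median was 0.29, with 80 of 84 positive, and the mitochondrial median -0.02. Without mouse 6 of HFD Bcl2TG these were 0.07 and -0.28. ND4L was at 49.0, 88.6 and 92.4 CPM in Chow Bcl2TG and at 32.3, 36.6, 30.3, 20.1 and 24.2 CPM in HFD Bcl2TG. The groups did not overlap (log2 fold change -1.41 ± 0.47, adjusted p = 0.131, edgeR), and its copy held a median of 55.0% of the pair. The interaction of diet and genotype called 0 members (edgeR, against 0.485% of all genes, and 0 by DESeq2 and limma-voom), and 21 of 97 passed an unadjusted p under 0.05, against 14.9%. Its medians were 0.46 (mitochondrial) and 0.81 (nuclear), and the nuclear median was 0.30 without mouse 2 of both WT groups and -0.02, with 32 of 84 positive, with the short-gene covariate. With that covariate the nuclear median of the diet in Bcl2TG was 0.01.

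**Figure D4:**
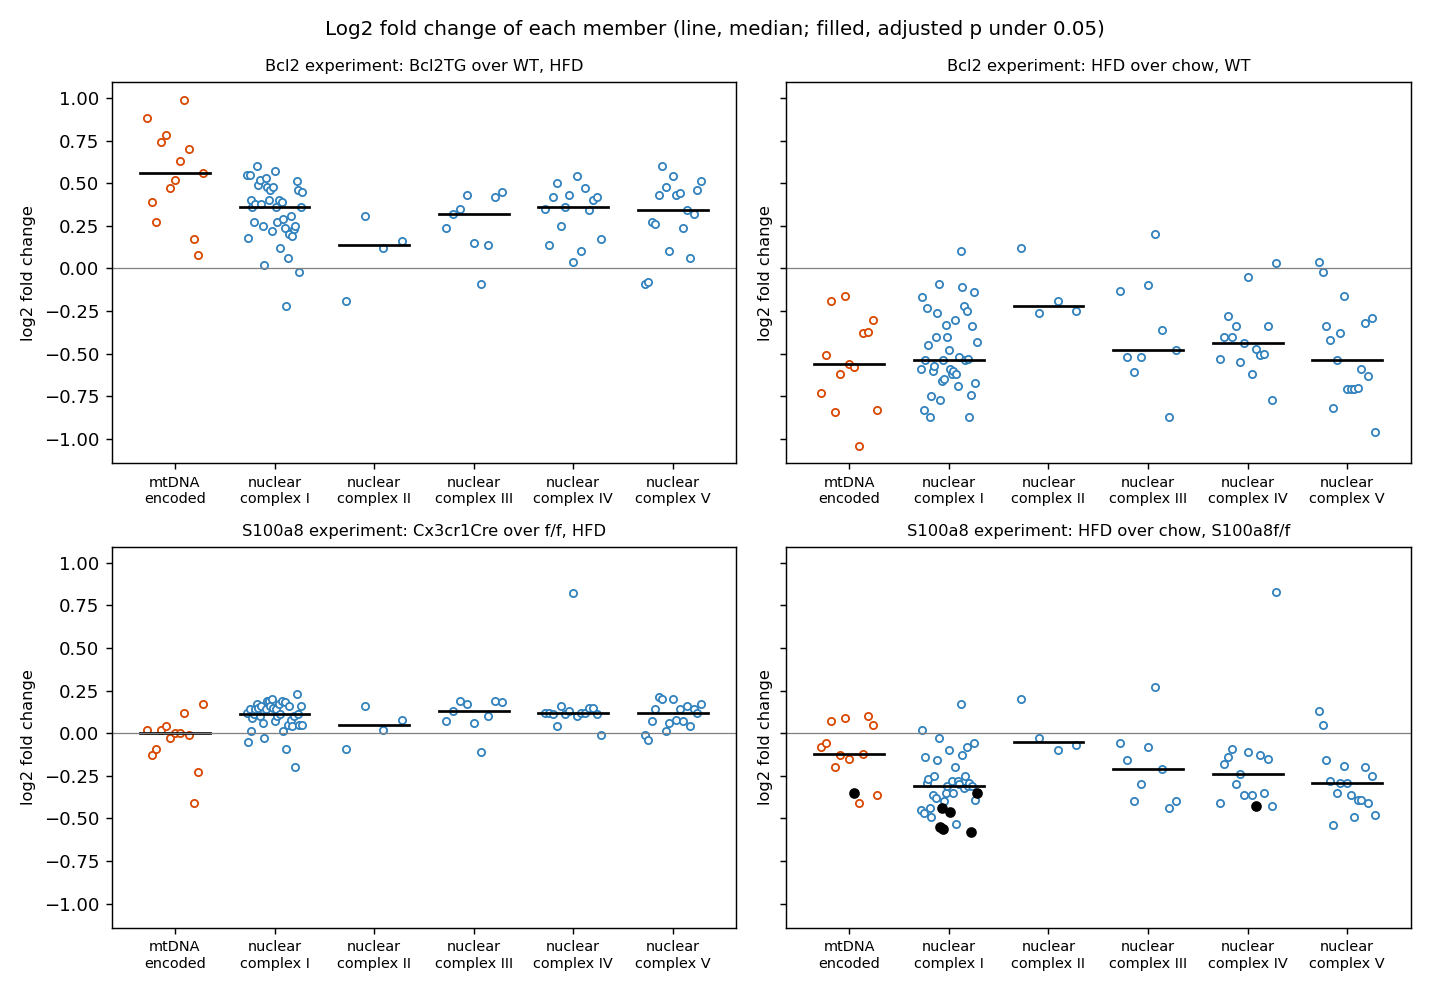
Log2 fold changes (vertical axis) of the members are plotted by genome and complex for genotype on HFD and diet in the control genotype of each experiment, a point per gene with a line at the median, filled where the adjusted p was under 0.05. Filled points appear only for the diet in S100a8f/f livers, where 8 members were lower, 6 of them nuclear genes of complex I.

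In the S100a8 experiment the comparison of genotypes on HFD gave values near 0 for both genomes. No member was called (edgeR, against 0.883% of all genes; 0 by DESeq2 and limma-voom), and 1 of 97 passed an unadjusted p under 0.05, against 7.74%. The mitochondrial median was 0.00, and the nuclear median 0.12 with 75 of 84 positive. COX1, for example, was at 14486 ± 759 CPM in HFD S100a8f/f (n = 5) and 13617 ± 977 CPM in HFD S100a8f/fCx3cr1Cre (SD, n = 4), a log2 fold change of -0.09 ± 0.16 (adjusted p = 0.953, edgeR), and CYTB at 7816 ± 676 and 7649 ± 783 CPM (-0.03 ± 0.13, adjusted p = 0.984, edgeR). On chow, too, 0 members were called (edgeR, against 0.0% of all genes; 0 by DESeq2 and limma-voom), and 0 of 97 passed an unadjusted p under 0.05, against 5.61%. The interaction called 0 (edgeR, against 0.13%; 0 by DESeq2 and limma-voom; 0 of 97 at an unadjusted p under 0.05, against 6.36%). For Atp5f1b the 4 group means lay between 1270 ± 62.7 CPM (Chow S100a8f/f, n = 4) and 1338 ± 44.2 CPM (Chow S100a8f/fCx3cr1Cre, SD, n = 5).

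Diet in S100a8f/f livers was the comparison with the most calls. Of 97 members, 8 were lower on HFD and 0 higher (edgeR), against 27.5% of all genes in either direction and 13.0% lower. The share of members was thus below that of all genes. They were ND2 of the mitochondrial genome and Ndufs7, Ndufb11, Ndufv3, Ndufb10, Ndufb5 and Ndufb1 of nuclear complex I, with Cox7a2l, a factor of supercomplex assembly. At an unadjusted p under 0.05, 29 members passed, against 39.7%. DESeq2 called 13 and limma-voom 2, against 4290 and 3386 of all 13817 genes. The nuclear median was -0.29 with 77 of 84 negative, the mitochondrial median -0.12 with 9 of 13 negative, and the median of all genes -0.01. By complex the nuclear medians were -0.31 (I), -0.05 (II), -0.21 (III), -0.24 (IV) and -0.29 (V).

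The 6 nuclear complex I genes shared a pattern over mice. Ndufs7 was at 247, 201, 139 and 122 CPM in Chow S100a8f/f mice 1, 2, 4 and 5 and at 124, 137, 108, 112 and 110 CPM in HFD S100a8f/f (log2 fold change -0.58 ± 0.18, adjusted p = 0.0183, edgeR). Mice 1 and 2 on chow were high, and mouse 5 on chow lay within the HFD range. Ndufb11, a membrane-arm subunit, was at 336, 301, 187 and 184 CPM on chow and at 177, 201, 151, 165 and 157 CPM on HFD (-0.56 ± 0.19, adjusted p = 0.0296, edgeR), with the same mice high. Ndufb10 (-0.44 ± 0.15), Ndufb5 (-0.46 ± 0.16) and Ndufb1 (-0.55 ± 0.20) had adjusted p-values of 0.0388, 0.0454 and 0.0487 (edgeR) and groups that overlapped. GENCODE M21 annotates Ndufb1 as a noncoding gene. Ndufv3, a small subunit of the NADH-binding module, was the exception, at 113, 113, 91.4 and 90.7 CPM on chow and at 82.4, 87.7, 80.5, 74.8 and 75.6 CPM on HFD, without overlap (-0.35 ± 0.12, adjusted p = 0.0371, edgeR). Cox7a2l was at 132, 146, 93.2 and 93.5 CPM on chow and at 89.6, 96.6, 76.3, 90.5 and 80.1 CPM on HFD (-0.43 ± 0.13, adjusted p = 0.0244, edgeR).

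The count of calls depended on mice 1 and 2 of Chow S100a8f/f. Without mouse 1 there was 1 call and without mouse 2 there were 2, whereas without mouse 4 or mouse 5 there were 19 and 29. The nuclear median was -0.17 and -0.20 without mouse 1 or mouse 2. With the short-gene covariate the nuclear median was 0.02 and 3 members were called, against 4413 of all 13817 genes. The covariate rose and fell with the subunit genes over libraries (median Spearman rho 0.88), so this fit cannot separate diet from it. The same covariate left 75 of 78 ribosomal protein genes called. Without the covariate 76 of 78 cytosolic ribosomal protein genes were called lower on HFD (median -0.69), and the part of the short-gene level in the subunits' values was not tested further.

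Diet in S100a8f/fCx3cr1Cre livers, which does not share samples with the former comparison, called 2 members, both lower (edgeR, against 28.9% of all genes in either direction and 12.8% lower): ND2 and Ndufs6b. At an unadjusted p under 0.05, 6 of 97 passed, against 40.5%. DESeq2 called 4 and limma-voom 10, against 4427 and 4856 of all 13817 genes. The nuclear median was -0.22, with 78 of 84 negative, and the mitochondrial median -0.08. Ndufs6b, an intronless copy of the complex I gene Ndufs6, was at 3.51, 4.22, 5.99, 5.12 and 7.01 CPM in Chow S100a8f/fCx3cr1Cre and at 3.84, 3.22, 2.80 and 3.12 CPM on HFD, with 1 HFD value inside the chow range (-0.67 ± 0.20, adjusted p = 0.0175, edgeR). Its reads cannot be fully told apart from those of its parent gene.

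ND2 was the member called in both S100a8 genotypes. It encodes a membrane subunit of complex I and lies on the mitochondrial genome at 3914 to 4951 (ENSMUSG00000064345). Its level was 4886, 4575, 5545 and 4978 CPM in Chow S100a8f/f and 3710, 4494, 4095, 3435 and 3850 CPM in HFD S100a8f/f. In S100a8f/fCx3cr1Cre livers it was 5013, 4573, 5849, 4550 and 4677 CPM on chow and 3861, 4037, 3766 and 3997 CPM on HFD. Every HFD mouse lay below every chow mouse of its genotype. The log2 fold changes were -0.35 ± 0.10 (adjusted p = 0.0164) and -0.33 ± 0.10 (adjusted p = 0.0211, both edgeR). ND2 was called in 24 of 26 and 23 of 26 settings tried; in S100a8f/f the adjusted p was 0.0535 with only the 2 groups compared and 0.056 without mouse 4 on chow, and without mouse 3 of Chow S100a8f/fCx3cr1Cre, or mouse 1 or mouse 4 of HFD S100a8f/fCx3cr1Cre, 0.0662, 0.0531 and 0.0559 (edgeR). In the Bcl2 experiment ND2 was at 6470, 5173 and 6395 CPM in Chow WT and 5191, 706, 4650, 4764 and 4737 CPM in HFD WT, where mouse 1 on HFD exceeded mouse 2 on chow (-0.58 ± 0.39, adjusted p = 0.336, edgeR). With diet in Bcl2TG livers its log2 fold change was -0.38 to -0.07 over 25 settings, and 0 of them called it.

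Shares within the mitochondrial genome do not depend on how a library was scaled, so they show which of its genes moved against the others. COX1 took a median of 37.8% of mitochondrial counts in the Bcl2 and 37.0% in the S100a8 experiment, CYTB 20.4% and 19.6%, ND2 10.9% and 10.9%, ND1 10.4% and 13.4%, ND4 8.55% and 9.10%, ND5 7.88% and 4.79% and ND6 2.25% and 3.04%. The libraries that stood apart differed here as well: COX1 took 52.6% in mouse 2 of HFD WT, 26.0% in mouse 2 of Chow WT and 29.4% in mouse 6 of HFD Bcl2TG, and ND6 took 6.39% in mouse 2 of Chow WT. Over 6 comparisons and 13 genes, 78 exact two-sided permutation tests of these shares were made, and none passed an adjusted p of 0.05 (the smallest was 0.232). The smallest p these group sizes allow was 0.0179 (3 against 5 mice) or 0.00794 (the other sizes), so a single gene could not have passed the adjustment.

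The mean share of ND2 was lower and that of CYTB higher on HFD in both S100a8 genotypes, with the limit on the adjusted p just given. ND2 took 12.7% ± 1.45 of mitochondrial counts in Chow S100a8f/f (SD, n = 4) and 10.1% ± 0.371 in HFD S100a8f/f (SD, n = 5; exact permutation p = 0.00794, adjusted 0.232), and 12.8% ± 0.77 and 10.5% ± 0.494 in S100a8f/fCx3cr1Cre livers (SD, n = 5 and 4; exact permutation p = 0.00794, adjusted 0.232). CYTB took 18.5% ± 0.918 and 20.2% ± 0.409 (SD, n = 4 and 5; exact permutation p = 0.0159) and 18.2% ± 0.864 and 20.4% ± 0.526 (SD, n = 5 and 4; exact permutation p = 0.0159, adjusted 0.232). In Bcl2TG livers CYTB took 19.1% ± 0.643 on chow and 21.4% ± 1.35 on HFD (SD, n = 3 and 5; exact permutation p = 0.0357, adjusted 0.398). In the same comparison ND4L took 0.127% ± 0.0363 on chow and 0.0537% ± 0.0161 on HFD, and ATP8 0.0231% ± 0.00687 and 0.0135% ± 0.00164 (SD, n = 3 and 5; exact permutation p = 0.0179 and adjusted 0.232 for either), both without overlap. ND2 did not move in Bcl2TG livers, at 11.3% ± 0.379 on chow and 11.2% ± 0.74 on HFD (exact permutation p = 0.804). In WT livers ND2 took 11.8% ± 1.39 on chow and 9.05% ± 2.33 on HFD (SD, n = 3 and 5; exact permutation p = 0.0893, adjusted 0.58). Over the Bcl2 experiment CYTB took 18.3% to 19.8% on chow and 20.3% to 23.6% on HFD except for mouse 2 of HFD WT, at 16.8%. Shares of 1 genome sum to a fixed total, so these shifts are not independent of each other.

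**Figure D5:**
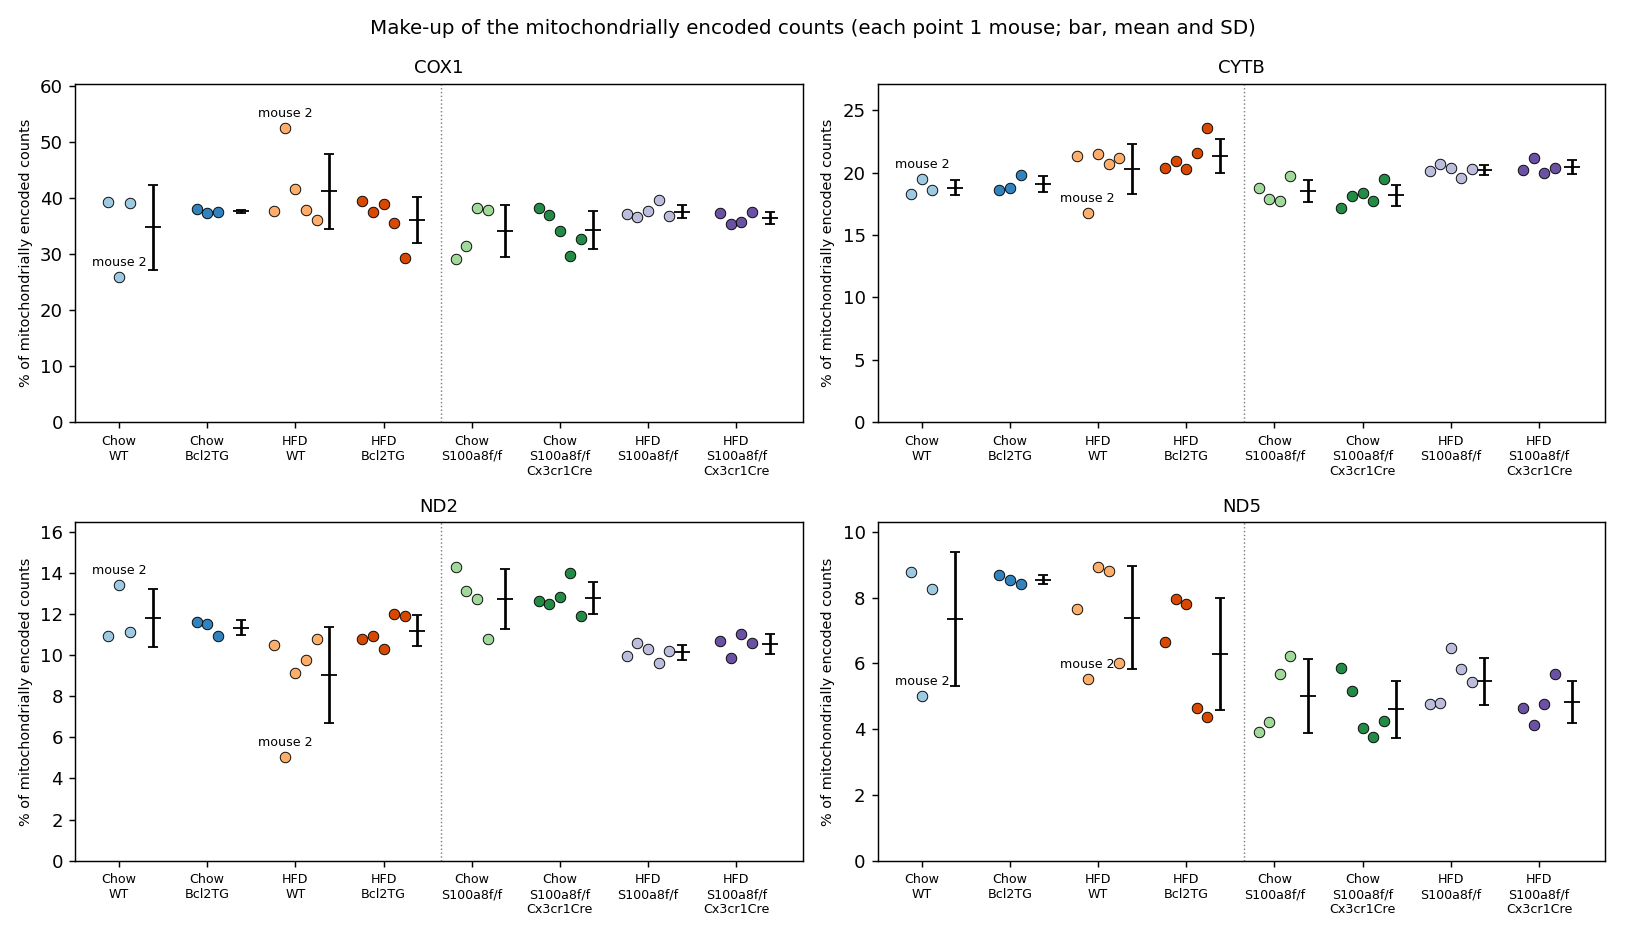
The percent of mitochondrial counts taken by COX1, CYTB, ND2 and ND5 is plotted by library and group, a point per mouse with a bar for the mean and SD. In both S100a8 genotypes ND2 is lower on HFD (means 10.1% and 10.5%) than on chow (12.7% and 12.8%) and CYTB higher, and mouse 2 of HFD WT stands out with 52.6% for COX1.

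Tissue-restricted isoforms were mostly low. Cox4i2, Cox6a2 and Cox6b2 were not among the members of both tables. Cox7a1, the isoform of complex IV known from heart, muscle and brown fat, was at 5.51, 4.25, 6.54 and 5.08 CPM in HFD S100a8f/fCx3cr1Cre, at 1.99, 1.65, 3.27, 5.34 and 1.90 CPM in Chow S100a8f/fCx3cr1Cre, at 4.72, 3.05, 0.947, 2.75 and 3.63 CPM in HFD S100a8f/f and at 4.46, 3.27, 2.98 and 2.35 CPM in Chow S100a8f/f. HFD S100a8f/fCx3cr1Cre held the highest mean, and mouse 4 on chow lay within its range (diet 0.93 ± 0.36, adjusted p = 0.0585; genotype on HFD 0.82 ± 0.35, adjusted p = 0.557, both edgeR). Over 26 settings (edgeR, DESeq2 and limma-voom fits) the adjusted p of the diet ran from 0.0101, without that chow mouse, to 0.143. Cox7a1 was called in 6 of them. Cox7a2, the common isoform, was at 118 ± 14.4 CPM in HFD S100a8f/fCx3cr1Cre (n = 4) and 143 ± 30.9 CPM in Chow S100a8f/fCx3cr1Cre (SD, n = 5).

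The 4 HFD S100a8f/fCx3cr1Cre livers were also high in adipocyte markers. Adipoq, which encodes adiponectin and is made by adipocytes, was at 6.63, 7.11, 7.88 and 6.45 CPM in HFD S100a8f/fCx3cr1Cre, at 0.517 to 1.73 CPM in HFD S100a8f/f and at 0.422 to 1.96 CPM over both chow groups (genotype on HFD 2.67 ± 0.32, adjusted p = 0.000116, edgeR). Of the adipocyte list (Adipoq, Plin1, Lep and Cfd), 3 of 4 genes were in the table, with summed levels of 70.2 to 149 CPM in HFD S100a8f/fCx3cr1Cre, 7.39 to 29.8 CPM in HFD S100a8f/f, 8.94 to 34.4 CPM in Chow S100a8f/f and 5.49 to 52.6 CPM in Chow S100a8f/fCx3cr1Cre. Ucp1, the uncoupling protein of brown fat, was at 9.43, 12.0, 25.7 and 26.9 CPM in those 4 livers and at 1.25 to 10.1 CPM in HFD S100a8f/f, 1.41 to 11.4 CPM in Chow S100a8f/f and 0.205 to 10.8 CPM in Chow S100a8f/fCx3cr1Cre, with overlap. The part of fat cells in the level of Cox7a1 was not tested.

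Ndufa4l2, a hypoxia-inducible relative of Ndufa4, had one of the few positive diet values among the nuclear members of S100a8f/f livers. It was at 1.47, 2.77, 0.635 and 1.36 CPM on chow and at 3.68, 3.14, 1.68, 2.51 and 2.76 CPM on HFD, with overlapping groups (log2 fold change 0.83 ± 0.33, adjusted p = 0.071, edgeR). DESeq2 and limma-voom gave adjusted p-values of 0.0462 and 0.0416. Ndufa4 itself was at 409 ± 107 CPM on chow (n = 4) and 303 ± 34.4 CPM on HFD (SD, n = 5; -0.43 ± 0.17, adjusted p = 0.0608, edgeR). Ndufs1, the largest subunit of complex I, was higher in every HFD mouse (104 to 108 CPM) than in every chow mouse (81.9 to 99.5 CPM) but missed the threshold (0.17 ± 0.08, adjusted p = 0.0961, edgeR). Sdha, Atp5f1a and Atp5f1b had values of 0.20, 0.13 and 0.05, and Cox4i1 and Cox6c -0.41 and -0.36, and none of these passed the test.

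Genes that serve the same complexes gave few calls of their own. Of all genes, 27.5% were called with diet in S100a8f/f, 28.9% in S100a8f/fCx3cr1Cre and 15.4% in WT livers, and the lists below are read against these shares. Of 45 assembly factors, 3 rose and 1 fell with diet in S100a8f/f livers and 2 rose and 2 fell in S100a8f/fCx3cr1Cre livers; those that changed in S100a8f/f included Acad9 (0.53) and Ndufaf4 (-0.42), complex I assembly factors, and Taco1 (0.45), needed to translate COX1. Of 37 genes of mitochondrial genome expression, 1 rose and 3 fell in S100a8f/f livers and 1 rose and 4 fell in S100a8f/fCx3cr1Cre livers. Lrpprc, which stabilises mitochondrial mRNAs, fell by 0.29 on the log2 scale in S100a8f/f (SE 0.07, adjusted p = 0.00691, edgeR) and by 0.38 in S100a8f/fCx3cr1Cre livers (SE 0.07, adjusted p = 0.000982, edgeR). Trmt10c, part of the enzyme that cuts tRNAs out of mitochondrial transcripts, had -0.37 (adjusted p = 0.0277) and -0.71 (adjusted p = 0.0003), and in WT livers of the Bcl2 experiment -0.56 ± 0.13 (adjusted p = 0.0103, all edgeR). Of 78 mitochondrial ribosomal protein genes, 11 fell and 0 rose with diet in S100a8f/f and 6 fell in S100a8f/fCx3cr1Cre livers (medians -0.22 and -0.19), against 13.0% and 12.8% of all genes called lower. Of 79 such genes 6 fell in WT livers (median -0.34).

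Matrix enzymes and regulators were called about as often as all genes with diet in S100a8f/f livers. Of 13 tricarboxylic acid cycle genes, 4 rose and 0 fell there (30.8%; median 0.10), among them Cs, citrate synthase, by 0.51 ± 0.10 (adjusted p = 0.000754, edgeR). Of 10 regulators, 3 fell and 0 rose there (30.0%): Pprc1, a coactivator of the PGC-1 family (-0.56 ± 0.16, adjusted p = 0.015, edgeR), Esrra (-0.26) and Yy1 (-0.28). Pprc1 had -1.22 ± 0.16 in S100a8f/fCx3cr1Cre livers (adjusted p = 2.45e-05, edgeR). In the Bcl2 experiment Ppargc1a was the 1 regulator of 10 to rise with diet in WT livers. Of 24 mobile carriers and partners, Ucp2, a carrier of the inner membrane, rose with diet in WT livers (1.99 ± 0.29, adjusted p = 0.000266, edgeR) and was lower in HFD Bcl2TG than in HFD WT (-1.11 ± 0.23, adjusted p = 0.00857, edgeR), the only gene of that list called between those genotypes. Slc25a4, the ADP/ATP carrier isoform of muscle and heart, rose with diet in S100a8f/f (0.50, adjusted p = 0.013) and S100a8f/fCx3cr1Cre livers (1.0, adjusted p = 2.61e-05) and was higher in HFD S100a8f/fCx3cr1Cre than in HFD S100a8f/f (0.63, adjusted p = 0.0222, all edgeR). The HFD S100a8f/fCx3cr1Cre livers are those with the high adipocyte markers described above, whose part in the Slc25a4 level was not tested.

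Markers of other cell types and clock genes also differed between groups. Beside shares of all genes called of 15.4% (WT), 27.5% (S100a8f/f) and 28.9% (S100a8f/fCx3cr1Cre), of 8 macrophage markers, 6 rose and 0 fell with diet in WT livers, 4 rose in S100a8f/f and 7 rose in S100a8f/fCx3cr1Cre livers, with summed levels of 54.2 to 78.0 CPM in Chow WT and 107 to 183 CPM in HFD WT. Of 7 hepatocyte markers, 1 fell in WT, 3 in S100a8f/f and 2 in S100a8f/fCx3cr1Cre livers. Of 5 stellate cell and fibroblast markers, 3 rose in WT and 5 in either S100a8 genotype, and 3 were lower in HFD Bcl2TG than in HFD WT. Their summed level was 96.9 to 108 CPM in Chow WT, 241 to 321 CPM in HFD WT and 85.0 to 158 CPM in HFD Bcl2TG, and 36.5 to 59.3 CPM in Chow S100a8f/f and 161 to 325 CPM in HFD S100a8f/f. Dbp, a clock output gene, was at 0.493 to 1.40 CPM in Chow WT, 24.9 to 34.7 CPM in HFD WT, 34.6 to 106 CPM in HFD Bcl2TG and 69.4 to 163 CPM over the S100a8 libraries. The summed level of the 16 clock genes was 443 to 574 CPM in HFD WT and 575 to 839 CPM in HFD Bcl2TG, without overlap. The part of these in the subunits' values was not tested.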

How the data were processed

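Polyadenylated liver RNA (Trizol) was sequenced on an Illumina instrument, 1 library per mouse. Per the submitters' processing notes, which give no versions, the authors used FastQC, Trimmomatic, HISAT2 on GRCm38, SAMtools, featureCounts and DESeq2. The deposited counts are raw counts per gene, already without the lowest genes (mean counts under 7.12 and 8.67). The 14628 and 14030 entries were reduced to 14436 and 13817 genes by keeping 1 row per Ensembl identifier, and 14425 and 13809 of them were found in GENCODE M21. How reads that fit several places were counted is not given in the sources used here. The tables also hold the authors' log2 fold changes, p-values and mean signal for the HFD-fed genotypes, which were not used.

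Counts were normalized by TMM and tested in edgeR 4.0.16 (R 4.3.3) by the quasi-likelihood test, with the 4 groups of an experiment in 1 fit, no covariate, and p-values adjusted by Benjamini-Hochberg across each whole table (threshold 0.05). In each of 2 experiments the contrasts were the genotypes on each diet, the diets in each genotype and the interaction, 10 in all. The tables were never fitted together. Replicate numbers were taken to pair the mice of a comparison where every same-numbered pair had correlated deviations from its group means (r over 0.1). This held only for HFD WT against Chow WT (3 pairs, r 0.179 to 0.198), and no label gives a source for the pairing. Differently numbered mice of these groups had r from -0.472 to 0.484, so the check cannot show that the numbers pair them. CPM are counts scaled to the TMM library size. Shares of counts were computed on raw counts, with Wilson 95% intervals. Alternatives were RLE scaling, scaling on nuclear genes only, DESeq2 1.42.0 and limma-voom with quality weights (limma 3.58.1). Further alternatives were filters on low counts, a fit of the 2 groups alone, a block for the replicate number and omission of each library. For the mitochondrial share, the members that overlap another mitochondrial gene by more than 1 base were left out. A covariate for the level of short genes and leaving out mouse 2 of both WT groups were added after seeing the data. The fits were tested on simulated data. Shares within the mitochondrial genome were compared by exact permutation tests (SciPy 1.17.1), under Python 3.11.15 with NumPy 2.4.6 and pandas 2.3.3. Plots used matplotlib 3.10.9.

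The members and the lists were chosen with earlier results of these data known. The genes named are all mitochondrial genes, up to 6 called members per direction in the comparisons of genotype on HFD and diet in the controls, fixed reference subunits and isoform pairs, and up to 3 genes with the smallest p of a list. Ndufb5, Ndufb1, Ndufs6b, Atp5f1c, Atp5po, Uqcrh, Adipoq, Ucp1, Dbp, Bcl2 and the chromosome 1 copies were named after their values were seen.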

Additional observations from a re-analysis of the deposited data

Results flagged for a closer look

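In groups of 4 to 10 libraries, the highest and lowest library of each result was compared with the others by Dixon's criterion. Of 144 groups checked, 19 had a library far from the others, and chance alone marks about 1 in 20.

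Mouse 2 of HFD WT was far below the other 4 mice of its group in the mitochondrial share (1.49% of counts), ND1 (1415 CPM), ND2 (706 CPM), ND4 (445 CPM), CYTB (2346 CPM) and ATP8 (0.799 CPM). Mouse 6 of HFD Bcl2TG was far above the others in ND1 (10384 CPM), ND2 (9134 CPM), ND3 (116 CPM), ND4 (8620 CPM), ND6 (2443 CPM), CYTB (18164 CPM), COX2 (791 CPM), COX3 (594 CPM) and ATP6 (672 CPM). Its COX1 level was not among them.

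In HFD S100a8f/fCx3cr1Cre, mouse 5 was far above its mates in the ratio of mitochondrial to nuclear counts (2.77) and in ND5 (2149 CPM), and mouse 3 in ATP6 (276 CPM) and Ndufb10 (217 CPM).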

How the results depend on the processing

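RLE scaling, scaling on nuclear genes only and filters on low counts (which removed no gene) changed none of the mitochondrial and nuclear medians for genotype on HFD and diet in the controls by more than 0.01. For the diet in WT, called members numbered 1 with RLE scaling, scaling on nuclear genes only, limma-voom, the short-gene covariate or without mouse 2 of both WT groups, 4 with DESeq2 and 0 to 7 with each library left out (7 without mouse 3 of Chow WT, 5 without mouse 1 of Chow WT or mouse 6 of HFD Bcl2TG). Of 14436 genes, 2268 were called with RLE scaling, 2252 with scaling on nuclear genes only and 3132 with limma-voom. The short-gene covariate gave 2831, leaving out mouse 2 of both WT groups 1578 and DESeq2 2882. The nuclear median for the diet in WT was -0.04 with limma-voom and 0.03 with the short-gene covariate. It was -0.02 without mouse 2 of both WT groups, and -0.70 to 0.02 with each library left out. For genotype on HFD in the Bcl2 experiment, 1 member was called without mouse 2 of both WT groups, against 1633 of 14436 genes. The nuclear median was -0.01 with the short-gene covariate. With each library left out, the medians for genotype on HFD were 0.26 to 0.66 (mitochondrial) and 0.09 to 0.44 (nuclear). For the diet in Bcl2TG, 2 members were called with limma-voom (1968 of 14436 genes) and 2 without mouse 2 of both WT groups (633 genes). Only the 2 groups compared gave 1 (436 genes), and each library left out 0 to 1.

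For the diet in S100a8f/f, 13 members were called with DESeq2 (4290 of 13817 genes) and 2 with limma-voom (3386 genes). Only the 2 groups compared and the short-gene covariate gave 3 each (3001 and 4413 genes). With each library left out there were 1 to 29 (1 without mouse 1 and 29 without mouse 5 of Chow S100a8f/f). The nuclear median was 0.02 with the short-gene covariate and -0.39 to -0.17 with each library left out. For the diet in S100a8f/fCx3cr1Cre, 4 were called with DESeq2 (4427 of 13817 genes) and 4 with only the 2 groups compared (3967 genes). There were 10 with limma-voom (4856 genes) and 6 with the short-gene covariate (5194 genes). With each library left out there were 0 to 4 (0 without mouse 4 of HFD S100a8f/fCx3cr1Cre). Cox7a1, which the main fits did not call, changed sign. Its log2 fold change with diet in S100a8f/f was 0.21 with the short-gene covariate and -0.33 to 0.12 with each library left out. In WT it was 1.41 with limma-voom, 1.35 with the short-gene covariate and 1.72 without mouse 2 of both WT groups. With each library left out it was -0.51 to 1.64 in WT. Cox7a1 was called in 4 of 25 settings for the diet in WT. The log2 fold change of Ndufa4l2 in WT was -0.25 to 0.67. The cause was not tested.

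With the replicate number as a block, 2 members were called for the diet in WT (1996 of 14436 genes). For the diet in S100a8f/f 3 were called (3245 of 13817 genes), and Cox7a1 in WT had a log2 fold change of 0.05. Apart from HFD WT against Chow WT, not every same-numbered pair of the groups compared deviated together. For HFD WT against Chow WT differently numbered pairs reached higher correlations, so pairing was not shown there either. The mean mitochondrial share was also taken without ND4L, ND4, ATP8, ATP6, ND5 and ND6, which overlap another mitochondrial gene by more than 1 base. This share is lower by construction. It was 3.96% in Chow WT, 4.67% in Chow Bcl2TG, 3.6% in HFD WT and 4.38% in HFD Bcl2TG. In the S100a8 experiment it was 3.05% in Chow S100a8f/f, 3.01% in Chow S100a8f/fCx3cr1Cre, 3.38% in HFD S100a8f/f and 3.24% in HFD S100a8f/fCx3cr1Cre.

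With 3 to 5 mice per group, a missed threshold does not show that levels were alike. Shares are of polyadenylated RNA and say nothing of mitochondrial number or respiration.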

Other observations

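A pair of genes that fit the naming pattern was outside the 97 members because the tables differ. Atp5if1, an inhibitor of ATP synthase, carries that symbol in the Bcl2 table and the older symbol Atpif1 in the other. Cox8b, the complex IV isoform of heart, muscle and brown fat, was in the S100a8 table, at 4.67, 5.60, 8.57 and 7.94 CPM in HFD S100a8f/fCx3cr1Cre and 0.614 to 2.78 CPM in Chow S100a8f/fCx3cr1Cre (log2 fold change 2.12 ± 0.56, adjusted p = 0.00815, edgeR), and it rose there beside Adipoq (2.62 ± 0.32, adjusted p = 9.72e-06, edgeR). The genotypes on HFD gave 1.88 ± 0.55 for Cox8b (adjusted p = 0.192, edgeR).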
